A study of Malus x robusta with 27 samples.

Results

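Flowers of the strongly fragrant tree (SF) were compared with flowers of standard Malus robusta (Mr) at the early flowering stage (ES), when petals were opening and stamens were still closed. The comparison was set by material and stage and takes 6 of the 27 libraries of the study, 3 of SF and 3 of Mr. SF is 1 tree picked from the offspring of M. robusta for its strong scent, so its replicates come from the flowers of a single genotype, and Mr are trees of the standard parent. No transgene or treatment is named for either, both stood in the same nursery, and RNA was taken from whole flowers. The study also sampled a weakly fragrant offspring (WF) and the early balloon (EB) and late flowering (LS) stages, which are used here only where they show how a difference at ES stood elsewhere. The sources do not say whether the Mr replicates came from separate trees, so p-values measure the spread between these flowers.

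The scent of apple flowers is made of benzenoids, which derive from phenylalanine, of terpenes built in plastids and cytosol, and of fatty acid derivatives that lipoxygenases start. Methyltransferases and acyltransferases turn acids and alcohols into volatile esters, while chalcone synthase draws the same phenylpropanoid precursors towards flavonoids and anthocyanins. Opening petals also expand quickly, a growth that auxin and wall-loosening enzymes drive.

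Expression is given as FPKM (fragments per kilobase of gene, scaled to a library size), listed by library in the order of replicates 1, 2 and 3. That library size differed from the fragments counted on genes. Genes entered the test where 3 or more of the 27 libraries reached 1 FPKM, as did 29660 of 48445 genes, and a DEG is a gene with a Benjamini-Hochberg adjusted p under 0.05 in limma with any fold change. Log2 fold changes are SF minus Mr on the log2(FPKM + 1) scale, with their SE (n = 3 libraries in each group), and they understate the change of genes with low FPKM. The 6 libraries held 17479706 to 22527496 fragments on genes. Reads of both materials were mapped to the genome of another apple, HFTH1, whose coordinates (v1.0) are given, so that a difference in transcript level and a difference in how well an allele maps cannot be told apart. Nor can fewer cells of a type be told from less RNA per cell.

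DEGs made up 35.6% of the genes tested, 18.8% higher and 16.8% lower in SF, and these shares are the background for every family below. With FPKM scaled to total fragments instead, 6177 genes were higher and 3924 lower (61.2% of DEGs higher in place of 52.7%), with a median over all genes of 0.08 on the log2 scale in place of 0.01. Of 5564 genes higher in SF, 2304 differed by at least 1 on the log2 scale, 509 by at least 2 and 149 by at least 3. Of 4988 lower genes, 1800, 409 and 134 did. The median absolute log2 fold change was 0.87 among the higher and 0.80 among the lower DEGs. The libraries of SF and Mr did not overlap for 50.8% of genes tested and for 10550 of the 10552 DEGs. Groups without overlap are thus no further evidence for a DEG. By chromosome, 32.8% (chromosomes 1 and 16) to 39.7% (chromosome 5) of genes tested were DEGs, apart from the 109 genes listed under chromosome 0, with 27.5%.

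MADS-box genes, a family that includes regulators of floral organ identity, had summed FPKM of 2749, 2721 and 2776 in SF and 3117, 3117 and 2947 in Mr. No library of another tissue was there for comparison. The 27 Ole e I-like genes tested, markers of pollen and anthers, had summed FPKM of 4739.7, 4397 and 7726 in SF and 4883, 5495 and 3867 in Mr, so that the groups overlapped and SF_ES_3 stood above the others. That family gave 4 higher and 4 lower in SF of 27 tested, and 3 and 1 without SF_ES_1, 3 and 2 without SF_ES_2 and 4 and 1 without Mr_ES_1. Pectinesterases, many of them pollen genes, had summed FPKM of 2768, 1724 and 4538 in SF and 3493, 3683 and 2913 in Mr, with SF_ES_2 lowest and SF_ES_3 highest of the 6. Among ribonuclease T2 genes, which include pistil ribonucleases, 1 of 6 tested was higher and 0 lower. Chlorophyll a/b binding genes, markers of green tissue, differed more and are described with the light-related genes.

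**Figure D1:**
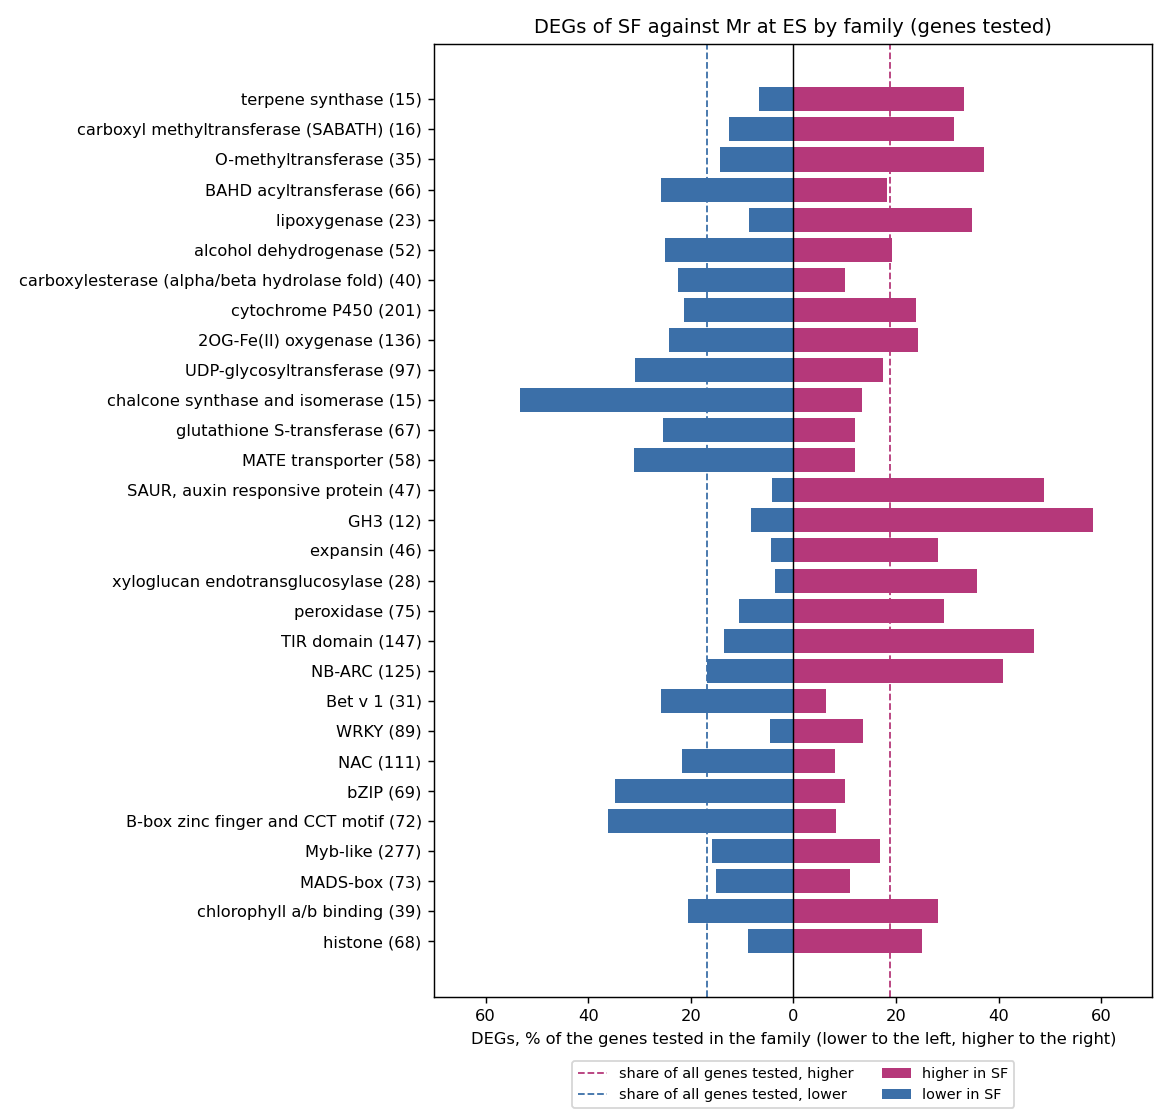
Bars give, for 29 families named by their domain descriptions, the percentage of genes tested that were higher (to the right) or lower (to the left) in SF than in Mr at ES, with the number tested in parentheses. Dashed lines mark 18.8% and 16.8%, the shares over all genes tested. SAUR, GH3 and TIR genes stood far to the right, while chalcone synthase and isomerase, B-box and bZIP genes stood to the left.

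Among the 43 genes that the study lists for its 4 main volatiles, 42 were tested, 10 were higher and 7 lower in SF. The 17 genes for leaf acetate gave 5 higher and 1 lower, the 17 tested for linalool 4 and 4, the 5 for methyl anthranilate 1 and 1, and the 3 for methyl benzoate 0 and 1. DEGs made up 40.5% of them, near the 35.6% of all genes. The count was 5 higher and 6 lower without SF_ES_1.

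Phenylalanine ammonia-lyase (PAL), which opens the route from phenylalanine to benzenoids, lignin and flavonoids, differed in its less abundant members. HF04849 (chr12:17495993-17499395), listed for methyl benzoate, had 17.8, 19.1 and 7.43 FPKM in SF and 173, 252 and 177 FPKM in Mr. Every SF library lay far below every Mr library (log2 fold change of -3.75 ± 0.36, adjusted p = 0.00083). HF01560 (chr4:16519708-16522898) had 30.8, 17.9 and 6.55 FPKM in SF and 209.99, 306 and 215 FPKM in Mr and differed likewise (log2 fold change of -3.86 ± 0.51, adjusted p = 0.0027). HF24990 (chr7:24364465-24370829), the most abundant member and the other gene listed for methyl benzoate, had 517, 344 and 349.95 FPKM in SF and 427, 442 and 393 FPKM in Mr. Its groups overlapped, with SF_ES_1 above and the other SF libraries below all of Mr, and it was not a DEG (log2 fold change of -0.08, adjusted p = 0.76). Over the family, 0 of 6 members were higher and 2 lower. The family had summed FPKM of 777, 581 and 560.1 in SF and 1013, 1227 and 969 in Mr, so every SF library lay below every Mr library.

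Carboxyl methyltransferases of the SABATH family make methyl esters such as methyl benzoate and methyl salicylate, and 1 gene supplied most of their transcripts. HF13510 (chr15:1443748-1451265) had 2250.1, 2016 and 2168 FPKM in SF and 1122, 1338 and 952 FPKM in Mr. It was higher in each SF library, 1.9-fold in the means (log2 fold change of 0.93 ± 0.21, adjusted p = 0.019). The call was lost without SF_ES_1 (adjusted p = 0.075), SF_ES_3 (0.051) or Mr_ES_1 (0.077), while the log2 fold change stayed at 0.81 to 1.05 whichever library was left out. HF44215 (chr10:9033270-9035030), the benzoic acid methyltransferase (BAMT) of the study's list, had 183, 190.5 and 189.8 FPKM in SF and 97.5, 30.98 and 165 FPKM in Mr. The 3 SF libraries were nearly equal and above all of Mr, but the Mr libraries spread more than 5-fold and the gene was not a DEG (log2 fold change of 1.23 ± 0.57, adjusted p = 0.14). Without Mr_ES_3 it passed (log2 fold change of 1.75, adjusted p = 0.047). In the family as a whole 5 of 16 members tested were higher and 2 lower in SF, and the split was 1 higher and 1 lower without Mr_ES_1, 2 and 1 without SF_ES_1, 2 and 2 without SF_ES_3 and 3 and 1 without Mr_ES_2.

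O-methyltransferases, which methylate phenolic hydroxyl groups, leaned to SF, as 13 of 35 members tested were higher and 5 lower in SF, with a median log2 fold change of 0.35 against 0.01 for all genes tested. The family had summed FPKM of 1078, 963 and 912 in SF and 719, 777 and 669 in Mr. A pair of gene models on chromosome 1 was higher in SF. HF23341 had the largest rise of the family, while HF23339 is not counted in it. HF23339 (chr1:32239609-32240031), which carries only the dimerisation domain of plant methyltransferases, had 3445, 3189 and 2629.6 FPKM in SF and 1124, 1251 and 1135 FPKM in Mr. Among DEGs whose libraries did not overlap, it was 1 of the 5 with the largest rise in mean FPKM (log2 fold change of 1.39 ± 0.22, adjusted p = 0.0051). HF23341 (chr1:32212252-32213252), close by and described by the catalytic domain, had 49.4, 33.6 and 24.3 FPKM in SF and 5.74, 0.732 and 7.18 FPKM in Mr. Its groups did not overlap (log2 fold change of 2.95 ± 0.62, adjusted p = 0.014), but the call was lost without SF_ES_1 (adjusted p = 0.053). Since HF23339 is modelled as a fragment of such an enzyme, reads of other copies may fall on it and its level is uncertain. HF15239, also on chromosome 1, was higher at a mean FPKM of 46.9 in SF and 15.4 in Mr (log2 fold change of 1.55).

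Terpene synthases were mostly low, and 15 of 50 listed members passed the filter. Of those tested, 5 were higher and 1 lower in SF. HF29432 (chr17:7731929-7735413) had 73.9, 78.7 and 131 FPKM in SF and 13.9, 12.6 and 7.77 FPKM in Mr. It was 8.3-fold higher in the means, with the lowest SF library more than 5 times the highest Mr library (log2 fold change of 2.93 ± 0.29, adjusted p = 0.00091). HF12196 (chr5:45862080-45864442), listed for linalool, had 18.5, 28.7 and 33.3 FPKM in SF and 2.502, 2.51 and 9.06 FPKM in Mr. The groups did not overlap (log2 fold change of 2.44 ± 0.46, adjusted p = 0.0096). The family had summed FPKM of 127, 133 and 206 in SF and 43.5, 34.4 and 50.6 in Mr, and HF29432 made up most of it in SF. In WF at ES, which shares no library with this comparison, the mean of HF29432 was 103 FPKM and that of HF12196 5.06 FPKM.

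Steps of the plastid pathway that feeds linalool moved in both directions. 1-Deoxy-D-xylulose 5-phosphate reductoisomerase (DXR) gene HF41298 (chr14:26250072-26253947), the second step, had 48.3, 48.5 and 51.1 FPKM in SF and 19.8, 20.7 and 18.04 FPKM in Mr. Libraries of a group lay close together and the groups far apart (log2 fold change of 1.295 ± 0.08, adjusted p = 0.00022). The synthase (DXS) gene HF26676 (chr16:14616422-14620069), which starts the pathway, had 34.3, 38.99 and 21.3 FPKM in SF and 70.5, 59.5 and 73.9 FPKM in Mr and was lower in SF (log2 fold change of -1.12 ± 0.23, adjusted p = 0.013). Geranyl diphosphate synthase (GPPS) gene HF18284 (chr10:36650323-36656946), which makes the precursor of monoterpenes, had 30.97, 27.9 and 30.1 FPKM in SF and 66.5, 76.8 and 53.6 FPKM in Mr and was lower too (log2 fold change of -1.11 ± 0.14, adjusted p = 0.0022). The most abundant DXS gene, HF22253, with a mean FPKM of 116 in SF and 122 in Mr, was not a DEG (log2 fold change of -0.09, adjusted p = 0.75). The other called genes of the linalool list differed less, with log2 fold changes of 0.37 for DXR gene HF09131, 0.52 for the late-step gene HF22522 (IDS), -0.32 for the late-step gene HF06193 (HDS) and -0.49 for DXS gene HF12728. The call of HF09131 was lost whichever of the 6 libraries was left out, that of HF22522 without SF_ES_1 or Mr_ES_1, and those of HF06193 and HF12728 without Mr_ES_1.

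In the lipoxygenase route, which splits fatty acids to short green-leaf aldehydes, alcohols and esters, most called genes were higher in SF. Of 23 lipoxygenases (LOX) tested, 8 were higher and 2 lower. HF16918 (chr7:655389-663687) led, with 66.8, 60.7 and 79.5 FPKM in SF and 19.1, 22.7 and 25.7 FPKM in Mr (log2 fold change of 1.58 ± 0.15, adjusted p = 0.00075). The family's count was 2 higher and 0 lower without SF_ES_1, 3 and 1 without SF_ES_2, 3 and 2 without Mr_ES_1 and 4 and 0 without Mr_ES_2. The gene that the study lists as hydroperoxide lyase (HDL), HF29363 (chr17:8569774-8573532), described as a cytochrome P450, had 83.2, 96.1 and 85.2 FPKM in SF and 34.03, 23.7 and 43.4 FPKM in Mr. Every SF library lay well above every Mr library (log2 fold change of 1.399 ± 0.21, adjusted p = 0.0044). Alcohol dehydrogenase (ADH) gene HF31864 (chr5:3549273-3552074) had 22.5, 9.65 and 22.5 FPKM in SF and 4.79, 2.99 and 2.34 FPKM in Mr (log2 fold change of 2.08 ± 0.37, adjusted p = 0.0077), with SF_ES_2 low within its group. In WF at ES it had 36.6, 11.3 and 512 FPKM, which overlapped SF, and its call was lost in a fit of all 9 groups (adjusted p = 0.20). ADH genes as a family gave 10 higher and 13 lower in SF of 52 tested, with 3 and 9 without Mr_ES_1 and 6 and 9 without SF_ES_1.

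For methyl anthranilate, the anthranilate synthase (AS) gene HF43372 (chr11:6392467-6392700) had 1.47, 0.859 and 2.03 FPKM in SF and was listed at 0 in all 3 Mr libraries (adjusted p = 0.0039). Against 3 fragments per Mr library its mean was at least 2.02-fold higher. The gene model has only 234 bases, on which 3 fragments come to 0.721 FPKM in Mr, so its values lie near the floor. In Mr it had 0.821, 0 and 0.406 FPKM at EB and 0, 0.222 and 0.243 FPKM at LS. The other listed AS gene, HF23986, was far more abundant, with 59.6, 66.6 and 54.5 FPKM in SF and 65.2, 56.6 and 61.3 FPKM in Mr, and was not a DEG (log2 fold change of -0.02, adjusted p = 0.89). Shikimate kinase (SK) gene HF41090 (chr15:36553775-36558042), upstream of all aromatic amino acids, had 52.2, 60.2 and 64.3 FPKM in SF and 119, 116 and 98.3 FPKM in Mr and was lower in SF without overlap (log2 fold change of -0.905 ± 0.12, adjusted p = 0.0025).

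**Figure D2:**
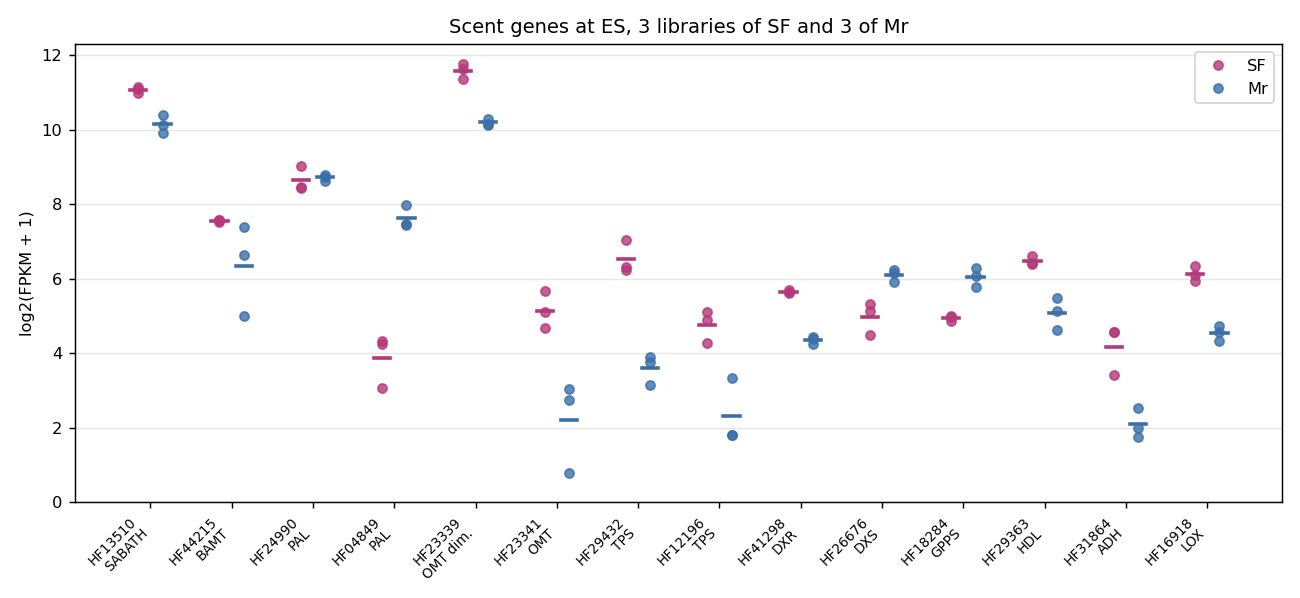
Each point is 1 library at ES on the log2(FPKM + 1) scale, SF left and Mr right of each gene's tick, with a bar at the mean of 3. HF29432, HF12196, HF41298 and HF16918 separated upwards in SF, HF04849, HF26676 and HF18284 downwards, and HF24990 overlapped.

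Among genes of the first steps towards flavonoids, more were lower than higher in SF. Of 15 chalcone synthase (CHS) and chalcone isomerase (CHI) genes tested, 2 were higher and 8 lower, and the family had summed FPKM of 645, 522 and 368 in SF and 1539, 1708 and 1638 in Mr. CHS makes the first flavonoid from phenylpropanoid and malonyl precursors. CHS gene HF00720 (chr4:406790-408597) had 217, 165 and 91.2 FPKM in SF and 614, 798 and 656 FPKM in Mr (log2 fold change of -2.198 ± 0.32, adjusted p = 0.0038). Its neighbour HF00721 (chr4:412728-414059) had 48.6, 39.6 and 13.8 FPKM in SF and 171, 181 and 189.8 FPKM in Mr (log2 fold change of -2.55 ± 0.44, adjusted p = 0.007). In both, SF_ES_3 was lowest and no SF library reached the lowest Mr library. As neighbouring copies they may share reads. CHI gene HF25114 (chr7:25848290-25850398), the next step, had 170.4, 103 and 61.4 FPKM in SF and 391, 379 and 421 FPKM in Mr (log2 fold change of -1.94 ± 0.35, adjusted p = 0.0081). A pair of low CHS genes on chromosome 2, HF26996 and HF26997, went the other way, with log2 fold changes of 1.51 and 1.34, at mean FPKM of 7.42 in SF and 1.97 in Mr and of 7.67 in SF and 2.44 in Mr.

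Families whose members regulate flavonoid genes or carry flavonoids in other plants held large falls, and some held large rises. Which members of them do so in apple is not given by the gene descriptions. The largest rises on the log2 scale were 3.20 among Myb-like genes, 1.71 among MATE transporters and 4.57 among glutathione S-transferases (HF19507). Myb-like gene HF02692 (chr3:36895077-36899602) had 3.03, 3.58 and 1.35 FPKM in SF and 60.97, 80.6 and 56.9 FPKM in Mr (log2 fold change of -4.24 ± 0.28, adjusted p = 0.00026), with the highest SF library far below the lowest Mr library. HF28523 (chr11:42121439-42125769), another Myb-like gene, had 0.469, 0.652 and 0.203 FPKM in SF and 13.3, 24.1 and 16.7 FPKM in Mr (log2 fold change of -3.697). Myb-like genes as a whole were balanced, with 47 higher and 44 lower in SF of 277 tested. DEGs made up 32.9% of them, against 35.6% of all genes. Among MATE transporters, which include carriers of flavonoids into the vacuole, 7 of 58 members tested were higher and 18 lower in SF. HF23526 (chr1:30468496-30488569) had 44.2, 34.6 and 28.6 FPKM in SF and 229, 296 and 197 FPKM in Mr (log2 fold change of -2.72 ± 0.21, adjusted p = 0.00039). Glutathione S-transferases, some of which carry anthocyanins in other plants, gave 8 higher and 17 lower in SF of 67 tested, and 9 and 10 without SF_ES_1. Of these HF22797 (chr10:30723612-30725202) averaged 3.74 ± 0.757 FPKM in SF and 30.9 ± 4.13 FPKM in Mr (SD), a log2 fold change of -2.76, and 5 of 6 tested members of its run of neighbours on chromosome 10 were lower.

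UDP-glycosyltransferases attach sugars to flavonoids and to scent precursors, which keeps the latter from evaporating. In this family 17 of 97 members tested were higher and 30 lower in SF, with summed FPKM of 843, 833 and 909.9 in SF and 1257, 1455 and 1234 in Mr. A newly assembled gene (chr15:22576239-22578968) had 3.98, 1.26 and 1.63 FPKM in SF and 53.5, 66.6 and 43.3 FPKM in Mr (log2 fold change of -4.14 ± 0.33, adjusted p = 0.00041). HF18355 (chr2:322125-325407) had 18.5, 23.6 and 30.99 FPKM in SF and 2.67, 3.66 and 4.05 FPKM in Mr and was the largest rise of the family (log2 fold change of 2.49 ± 0.22, adjusted p = 0.00059). BAHD acyltransferases, which make volatile esters and acylated pigments, had 12 higher and 17 lower in SF of 66 tested, and 6 higher and 11 lower without Mr_ES_1. HF21620 (chr8:7635074-7636550) had 0.167, 0.392 and 0.348 FPKM in SF and 61.8, 69.8 and 45.6 FPKM in Mr (log2 fold change of -5.51 ± 0.18, adjusted p = 3e-05), so it was nearly silent in SF, while its mean in WF at ES was 61.7 FPKM. HF15733 (chr4:26400743-26403715) had 0.0321, 0 and 0.133 FPKM in SF and 31.95, 28.3 and 12.3 FPKM in Mr (log2 fold change of -4.48).

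Oxygenases that diversify these compounds differed in both directions. Cytochrome P450 genes gave 48 higher and 43 lower in SF of 201 tested, and 2OG-Fe(II) oxygenases gave 33 higher and 33 lower in SF of 136 tested, in each direction above the shares of all genes. P450 gene HF24647 (chr14:29493472-29494218) and its newly assembled neighbour (chr14:29495611-29517418) had 0.345, 0.403 and 0.159 FPKM in SF and 81.4, 53.8 and 28.1 FPKM in Mr for the first, and 0, 0.297 and 0.04402 FPKM in SF and 50.5, 28.2 and 15.6 FPKM in Mr for the second. Both were nearly absent from SF (log2 fold changes of -5.29 and -4.72) but averaged 44.7 and 29.9 FPKM in WF at ES. P450 gene HF34622 (chr8:29991362-29993588) was the largest rise, with 14.7, 12.8 and 14.4 FPKM in SF and 0.672, 0.733 and 0.358 FPKM in Mr (log2 fold change of 3.24 ± 0.14, adjusted p = 8.1e-05). All 5 tested members of a P450 run on chromosome 6 (chr6:33502090-33601767) were higher in SF, with a median log2 fold change of 1.07. The oxygenase HF21836 (chr8:10507252-10516264) had 11.2, 4.81 and 4.798 FPKM in SF and 166, 218 and 141 FPKM in Mr (log2 fold change of -4.54 ± 0.33, adjusted p = 0.00033). By contrast HF07215 (chr8:19167458-19168708) of the same family had 54.7, 49.6 and 61.1 FPKM in SF and 4.73, 4.63 and 3.43 FPKM in Mr (log2 fold change of 3.42 ± 0.14, adjusted p = 6.3e-05), so these enzymes held falls and rises of similar size.

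**Figure D3:**
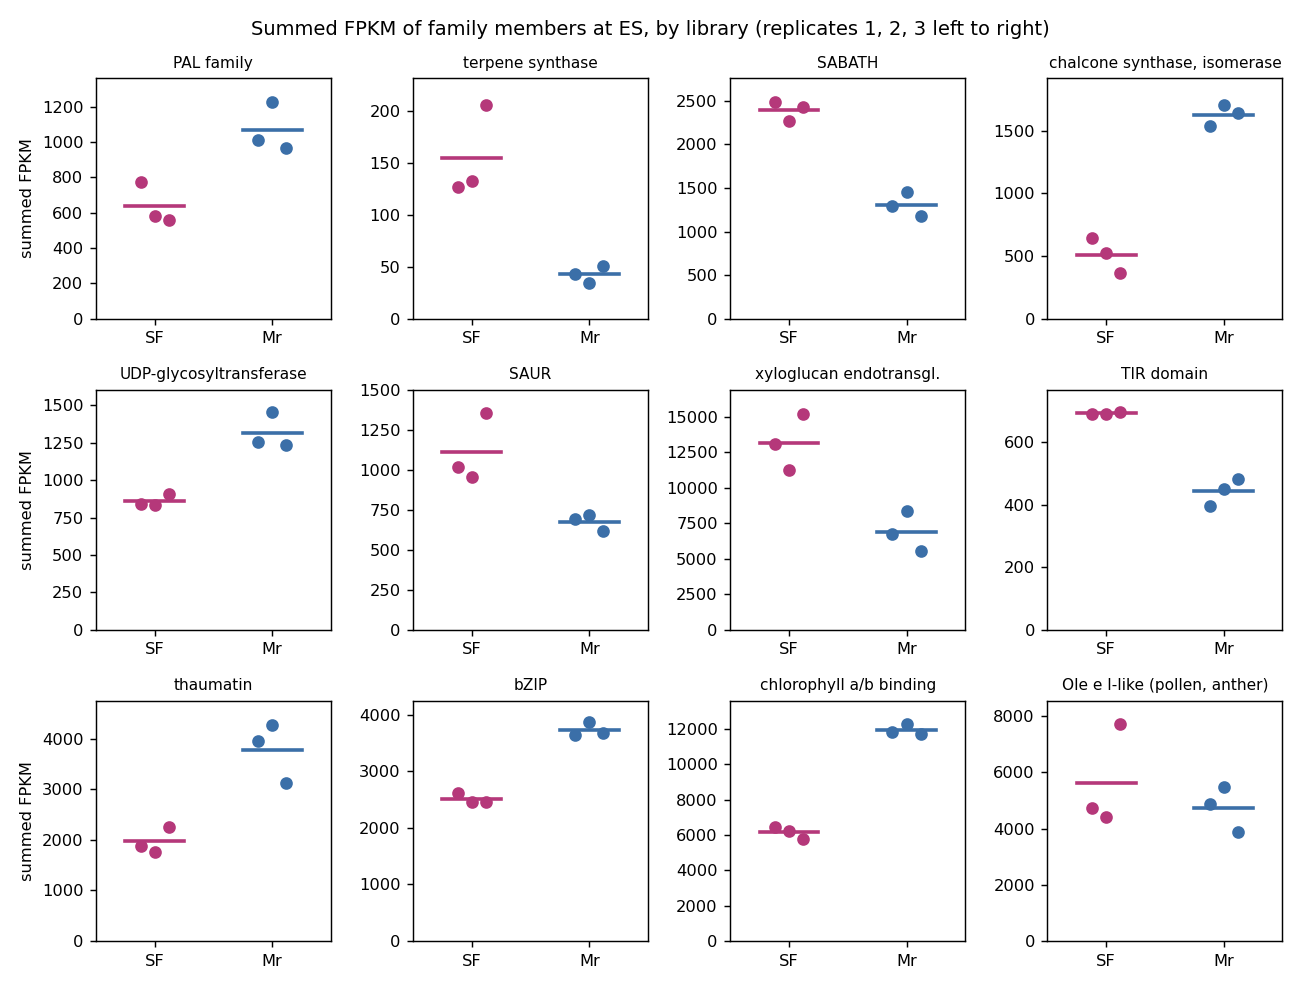
Panels show the summed FPKM of all listed members of 12 families in each ES library, with a bar at the mean of 3 and axes from 0. Terpene synthase, SABATH, SAUR, xyloglucan endotransglucosylase and TIR sums lay above Mr in every SF library, the PAL, chalcone, glycosyltransferase, thaumatin, bZIP and chlorophyll a/b binding sums lay below, and the Ole e I-like sums overlapped.

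Among SAUR and GH3 genes, 2 families induced by auxin, more were higher than lower in SF. Of 47 SAUR genes tested, which in other plants are induced by auxin and promote cell expansion, 23 were higher and 2 lower in SF (median log2 fold change of 0.79). The family had summed FPKM of 1022, 955 and 1355 in SF and 692, 722 and 616 in Mr, again with SF_ES_3 highest. HF39607 (chr5:9894015-9894317) had 36.5, 38.6 and 63.4 FPKM in SF and 2.63, 2.54 and 0.1697 FPKM in Mr (log2 fold change of 4.21 ± 0.49, adjusted p = 0.0016). HF02629 (chr10:7146144-7146449) had 55.4, 75.3 and 73.1 FPKM in SF and 15.1, 6.299 and 1.85 FPKM in Mr (log2 fold change of 3.2995 ± 0.60, adjusted p = 0.0082), and it lies in a run of SAUR genes on chromosome 10 (chr10:7115682-7475937) in which all 9 tested of 16 listed members were higher. In a run on chromosome 5 (chr5:9792046-10143728), 6 of 9 tested were higher. Such neighbouring copies are alike and may share reads.

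GH3 enzymes, which join auxin to amino acids and are themselves induced by auxin, gave 7 higher and 1 lower in SF of 12 tested and 4 higher and 1 lower without SF_ES_1 or without Mr_ES_1. HF08247 (chr5:20128835-20131276) had 40.001, 46.6 and 53.5 FPKM in SF and 10.5, 9.94 and 4.56 FPKM in Mr (log2 fold change of 2.41 ± 0.30, adjusted p = 0.002). Aux/IAA gene HF22057 (chr8:14581791-14583163), a repressor of auxin response, had 8.205, 16.95 and 9.68 FPKM in SF and 2.54, 2.02 and 1.69 FPKM in Mr (log2 fold change of 1.98). Aux/IAA genes as a family gave 10 higher and 4 lower in SF of 38 tested, 6 and 2 without SF_ES_1 and 7 and 7 without Mr_ES_3. Auxin response factors gave 6 higher and 8 lower in SF of 31 tested, 3 and 6 without Mr_ES_1 and 4 and 10 without Mr_ES_3. Gibberellin regulated (GASA) genes gave 7 higher and 2 lower in SF of 19 tested, and HF08230 (chr5:20392967-20393484) had 154, 179 and 100.3 FPKM in SF and 15.1, 4.81 and 31.4 FPKM in Mr (log2 fold change of 3.29 ± 0.62, adjusted p = 0.0093).

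In both families of wall-loosening genes more members were higher than lower in SF, although most were not called. Of 28 xyloglucan endotransglucosylases tested, enzymes that cut and rejoin wall xyloglucan, 10 were higher and 1 lower. The split was 7 higher and 0 lower without SF_ES_1 or without Mr_ES_3, and 9 higher and 5 lower without SF_ES_3. The family had summed FPKM of 13106, 11251 and 15186 in SF and 6718, 8392 and 5515 in Mr. HF00861 (chr4:2005506-2007443) had 952, 942 and 1224 FPKM in SF and 108, 146 and 91.4 FPKM in Mr, with every SF library more than 6 times any Mr library (log2 fold change of 3.18 ± 0.21, adjusted p = 0.00025). HF33666 (chr9:7332741-7335172) had 651, 636 and 522 FPKM in SF and 70.4, 114 and 116 FPKM in Mr (log2 fold change of 2.605 ± 0.22, adjusted p = 0.00054). Expansins, which loosen walls without cutting them, gave 13 higher and 2 lower in SF of 46 tested and 7 higher and 2 lower without Mr_ES_1. HF18445 (chr2:989162-990555) had 255, 236 and 229 FPKM in SF and 49.5, 22.5 and 73.2 FPKM in Mr (log2 fold change of 2.44 ± 0.40, adjusted p = 0.0057). HF37800 (chr12:24750312-24750797) had 9.17, 7.16 and 11.96 FPKM in SF and was listed at 0 in every Mr library, at least 21.97-fold higher against 3 fragments per library, and it was at 0 in WF at ES as well. The lipid transfer protein HF15590 (chr4:24976522-24985209), of a class that carries lipids to plant surfaces, had 1054, 1075 and 1206 FPKM in SF and 230.01, 235 and 213 FPKM in Mr (log2 fold change of 2.29 ± 0.12, adjusted p = 0.00013). Peroxidases gave 22 higher and 8 lower in SF of 75 tested.

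Among light-related regulators more genes were lower than higher in SF, although most were not called. Of 72 genes with a B-box zinc finger or a CCT motif, domains of light and clock regulators, 6 were higher and 26 lower. The 8 genes with both a response regulator domain and a CCT motif, the structure of clock pseudo-response regulators, gave 0 higher and 7 lower, with a median log2 fold change of -1.02. Their summed FPKM were 193, 193 and 199 in SF and 379, 408 and 340.3 in Mr. HF26066 (chr7:35075788-35079138) had 2.25, 2.86 and 1.501 FPKM in SF and 26.8, 26.8 and 25.9 FPKM in Mr (log2 fold change of -3.12 ± 0.17, adjusted p = 0.00015). HF23348 (chr1:32166285-32169687) had 12.3, 12.6 and 8.498 FPKM in SF and 63.6, 70.9 and 52.96 FPKM in Mr (log2 fold change of -2.396). B-box genes alone gave 0 higher and 8 lower of 23 tested. The 17 tify genes with a divergent CCT motif, which belong to jasmonate signalling instead, are counted in the same family and gave 3 higher and 4 lower, with HF19051 the largest rise (log2 fold change of 1.34).

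bZIP genes, many of which act in light and abscisic acid responses, gave 7 higher and 24 lower in SF of 69 tested, and 3 higher and 14 lower without SF_ES_1, 4 and 16 without Mr_ES_1 and 5 and 14 without Mr_ES_2. HF42923 (chr13:10255158-10256584) had 29.6, 25.3 and 24.4 FPKM in SF and 296, 480.5 and 367 FPKM in Mr, far apart in every library (log2 fold change of -3.78 ± 0.19, adjusted p = 0.00012). HF22028 (chr8:13997581-14005535), described by both a homeobox and a bZIP domain, had 7.96, 6.02 and 6.197 FPKM in SF and 42.9, 55.2 and 41.6 FPKM in Mr (log2 fold change of -2.62). HF38364 (chr12:30475637-30479015) was an exception, with 6.14, 7.799 and 13.5 FPKM in SF and 0.525, 0.929 and 0.665 FPKM in Mr (log2 fold change of 2.51).

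Chlorophyll a/b binding genes, the antenna of green tissue, had summed FPKM of 6474, 6229.5 and 5780.3 in SF and 11805, 12273 and 11697 in Mr, well apart. By count 11 of 39 members tested were higher and 8 lower in SF (6 higher and 5 lower without SF_ES_1), so the sum did not follow the number of genes. HF01786 (chr13:17621239-17621924), the most abundant, had 3136, 2493 and 3043 FPKM in SF and 8779.96, 9463 and 8069.6 FPKM in Mr (log2 fold change of -1.61 ± 0.36, adjusted p = 0.017), a gap about as large as that of the sum. Its call was lost without SF_ES_1 (adjusted p = 0.085), SF_ES_2 (0.091), SF_ES_3 (0.062) or Mr_ES_1 (0.066). HF08845 (chr6:26857210-26858194) had 15.7, 8.71 and 4.55 FPKM in SF and 502, 489 and 432 FPKM in Mr (log2 fold change of -5.62 ± 0.38, adjusted p = 0.00027), and its mean in WF at ES was 5.27 FPKM. HF29260 (chr17:9723371-9728358) was higher, with 51.2, 59.6 and 31.8 FPKM in SF and 9.15, 5.63 and 11.9 FPKM in Mr (log2 fold change of 2.299 ± 0.32, adjusted p = 0.0032). These genes share sequence, so reads may be divided between copies. Photosystem subunits gave 7 higher and 5 lower in SF of 29 tested, and 3 and 2, 4 and 3, 1 and 4, and 4 and 2 without SF_ES_1, SF_ES_2, Mr_ES_1 and Mr_ES_2 in turn. The median log2 fold change was 0.20 for chlorophyll a/b binding genes and 0.23 for photosystem subunits. Photosystem subunit sums overlapped, with 2421, 2991 and 2246.5 FPKM in SF and 2177, 2075 and 2684 FPKM in Mr. Of 5 Rubisco small subunit genes tested, 0 were higher and 1 lower. Whether the amount of green tissue had a part in the lower bZIP and B-box transcripts and the lower antenna sum was not tested.

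Receptor genes of the immune system were more often higher in SF. Of 147 TIR domain genes tested, receptors that sense pathogen effectors, 69 were higher and 20 lower, and 38 of the higher and 5 of the lower differed by at least 1 on the log2 scale. The median log2 fold change was 0.46, and the family had summed FPKM of 690.4, 690.01 and 697 in SF and 397, 451 and 483 in Mr. HF19067 (chr2:7070822-7075152) had 56.7, 56.5 and 46.3 FPKM in SF and 2.45, 2.03 and 2.74 FPKM in Mr (log2 fold change of 3.99 ± 0.13, adjusted p = 3e-05). HF25572 (chr7:30699763-30713061) had 9.08, 9.35 and 9.36 FPKM in SF and 0.0119, 0.0865 and 0.0115 FPKM in Mr (log2 fold change of 3.31 ± 0.11, adjusted p = 2.9e-05), and HF25580 (chr7:30775429-30779891) had 8.04, 11.8 and 7.13 FPKM in SF and was listed at 0 in Mr, at least 59.2-fold higher against 3 fragments per library. Of 125 NB-ARC genes, 51 were higher and 21 lower. HF40000 (chr3:4173655-4183012) had 14.3, 15.4 and 14.2 FPKM in SF and 1.05, 0.7796 and 0.919 FPKM in Mr (log2 fold change of 3.03). Means of HF19067 and HF40000 in WF at ES were 4.48 and 0.554 FPKM, near those of Mr. These families hold similar copies, so reads may be divided between them.

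Pathogenesis-related proteins gave another picture. Bet v 1 genes, which include the major apple allergen, gave 2 higher and 8 lower in SF of 31 tested. HF43095 (chr13:12462996-12472977) had 13.8, 18.5 and 17.99 FPKM in SF and 87.4, 109 and 54.8 FPKM in Mr (log2 fold change of -2.21 ± 0.26, adjusted p = 0.0017). HF22085 (chr8:15300140-15304570) had 0.221, 0.604 and 0.153 FPKM in SF and 8.61, 12.9 and 5.21 FPKM in Mr (log2 fold change of -2.84). The thaumatin family had summed FPKM of 1879, 1761 and 2263 in SF and 3956, 4273 and 3117 in Mr, although its genes gave 6 higher and 7 lower in SF of 35 tested, and 3 and 5 without SF_ES_1. A newly assembled thaumatin gene (chr4:7891439-7945706) had 472, 437 and 685 FPKM in SF and 2799, 2876 and 1933 FPKM in Mr (log2 fold change of -2.26 ± 0.27, adjusted p = 0.0017), a gap as large as that of the sum. WRKY genes, regulators of defence responses, gave 12 higher and 4 lower in SF of 89 tested. DEGs made up 18.0% of them, below the 35.6% of all genes. The WRKY gene HF32511 had a mean FPKM of 17.2 in SF and 2.72 in Mr (log2 fold change of 2.33).

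Stress and reserve genes included some of the largest gaps. Hsp70 chaperones gave 5 higher and 13 lower in SF of 34 tested. HF02611 (chr10:6926634-6929745) had 60.1, 50.1 and 48.1 FPKM in SF and 556, 755 and 477 FPKM in Mr (log2 fold change of -3.45 ± 0.19, adjusted p = 0.00015), while HF24129 (chr1:24366191-24368726) had 473, 257 and 278 FPKM in SF and 92.2, 114 and 104.2 FPKM in Mr and was higher (log2 fold change of 1.64 ± 0.25, adjusted p = 0.0041). Small heat shock proteins gave 9 higher and 2 lower in SF of 37 tested, 4 and 2 without SF_ES_1 and 5 and 2 without Mr_ES_2. Their largest fall was HF28946 (chr17:13839151-13839938), with 8.197, 6.08 and 6.57 FPKM in SF and 61.4, 75.8 and 69.6 FPKM in Mr (log2 fold change of -3.14). Separation of the SF from the Mr libraries was a condition for naming these genes. Heat shock factors gave 7 higher and 9 lower in SF of 35 tested. Of these HF30538 (chr15:14549758-14550891) had 2.32, 2.43 and 1.495 FPKM in SF and 9.63, 38.6 and 43.7 FPKM in Mr (log2 fold change of -3.12). Beta-amylases, which release maltose from starch, gave 6 higher and 10 lower in SF of 31 tested, and HF37337 (chr6:5961979-5964232) had 1.25, 1.38 and 0.471 FPKM in SF and 68.2, 78.04 and 96.9 FPKM in Mr (log2 fold change of -5.35 ± 0.23, adjusted p = 7.2e-05).

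Among regulators of flower organs and development, MADS-box genes gave 8 higher and 11 lower in SF of 73 tested, and 6 and 5 without SF_ES_1. HF17455 (chr15:48756427-48765725) had 1.15, 1.35 and 1.43 FPKM in SF and 31.8, 36.4 and 27.2 FPKM in Mr (log2 fold change of -3.82 ± 0.14, adjusted p = 4.1e-05). HF21574 (chr8:7033107-7038486) had 15.1, 12.7 and 21.5 FPKM in SF and 0.837, 1.15 and 0.516 FPKM in Mr (log2 fold change of 3.23 ± 0.23, adjusted p = 0.0003). AP2 domain gene HF23792 (chr1:27800724-27801425) averaged 142 ± 28.7 FPKM in SF and 23.6 ± 3.09 FPKM in Mr (SD), and NAC gene HF07534 (chr16:4774936-4776132) averaged 87.5 ± 10.9 FPKM in SF and 24.4 ± 1.88 FPKM in Mr (SD), with log2 fold changes of 2.52 and 1.79. Single members of these families thus differed strongly. AP2/ERF genes as a family gave 17 higher and 23 lower in SF of 133 tested, 12 and 14 without SF_ES_1 and 10 and 39 without Mr_ES_1. DEGs made up 30.1% of them, against 35.6% of all genes. NAC genes as a family gave 9 higher and 24 lower in SF of 111 tested, and 8 higher and 9 lower without SF_ES_1. Of the 80 transcription factors that the study lists, 78 were tested, 27 were higher and 32 lower. The study chose that list as DEGs on these samples, so its count is not independent evidence.

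Genes outside the families above also differed strongly. HF39406 (chr5:6448370-6449647), with the domains of ornithine, arginine or diaminopimelate decarboxylases, was the largest rise among described genes present in both materials, with 348, 325 and 308 FPKM in SF and 1.702, 3.87 and 1.81 FPKM in Mr (log2 fold change of 6.62 ± 0.23, adjusted p = 3.9e-05), and it stood at 7.28 ± 0.42 at EB and 5.905 ± 0.24 at LS. The gene HF20316 (chr14:6196941-6197321), which holds an actin domain, had 144, 136 and 228 FPKM in SF against 0 in Mr, at least 217-fold higher than 3 fragments per Mr library. HF03811 (chr11:35203988-35204886), which has no description, had the largest rise in mean FPKM among DEGs whose libraries did not overlap. It had 2922, 3596 and 3269.7 FPKM in SF and 521, 495 and 612 FPKM in Mr (log2 fold change of 2.59 ± 0.19, adjusted p = 0.00035). HF00321 (chr9:17703926-17708603), an acid phosphatase, had 56.5, 49.01 and 47.2 FPKM in SF and 0.321, 0.389 and 0.312 FPKM in Mr (log2 fold change of 5.27 ± 0.11, adjusted p = 2.2e-05). Serine carboxypeptidase HF41921 (chr13:245904-251692), of a family that also holds acyltransferases of phenolic glucose esters, had 40.1, 29.98 and 39.8 FPKM in SF and 0.117, 0.283 and 0.264 FPKM in Mr (log2 fold change of 4.94). Glycosyl hydrolase family 1 gene HF08921 (chr6:27772141-27789319), of the beta-glucosidase type, had 47.001, 35.8 and 73.1 FPKM in SF and 1.69, 0.839 and 0.952 FPKM in Mr (log2 fold change of 4.58). The means of HF41921 and HF08921 in WF at ES were 0.719 and 0.786 FPKM, as low as in Mr. HF18741 (chr2:3792950-3803299), an ion channel, had 0, 0.0519 and 0.0308 FPKM in SF and 55.2, 59.9 and 43.5 FPKM in Mr (log2 fold change of -5.7003 ± 0.14, adjusted p = 2.2e-05). Genes with no description gave 1881 higher and 1134 lower of 7636 tested (39.5% DEGs), against 35.6% DEGs among all genes. Newly assembled genes gave 766 higher and 394 lower of 2517 tested (46.1% DEGs). Mobile element genes leaned to SF as well, with 42 higher and 19 lower in SF of 121 tested for gag genes and 22 higher and 10 lower in SF of 68 tested for integrases.

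Some genes were listed at 0 in 1 material. Of the DEGs, 367 were listed at 0 in all 3 Mr libraries and above 0 in all 3 of SF, and 185 the reverse. Most of these were low, with median FPKM of 1.59 and 1.66 in the material that had them, but 24 of the former and 11 of the latter averaged at least 10. In all 9 Mr libraries of the study, 90 of the 367 were at 0, and in all 9 SF libraries 71 of the 185 were. The others had fragments in the same material at EB or LS. These libraries include Mr_LS_2 and SF_LS_1, which held transcripts found in WF, as described below. HF26406 (chr16:11153671-11155344), a stress responsive barrel protein, had 57.3, 64.2 and 44.9 FPKM in SF and was listed at 0 in Mr and in WF at ES, at least 109-fold higher than 3 fragments per Mr library. Glutathione S-transferase HF19507 (chr16:23612588-23613785) had 21.1, 22.7 and 24.8 FPKM in SF against 0 in Mr, at least 50.4-fold. In the other direction, HF04151 (chr3:24891181-24891905), a haloacid dehalogenase-like hydrolase, had 48.2, 62.9 and 50.3 FPKM in Mr and was listed at 0 in SF, at least 166-fold lower. A transcript at 0 may be absent or may not map to the reference copy, and these cannot be told apart.

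Some of these genes lay side by side. In a stretch of chromosome 3 (chr3:24494646-24982353), picked after its values were seen and so given without a test, 27 of 55 listed genes were tested, 18 were lower and 2 higher in SF. Of the 27, 9 were listed at 0 in every SF library and 23 averaged under 1 FPKM in SF, against 0 and 6 in Mr. The stretch holds HF04151, other haloacid dehalogenase-like genes (HF04123 among them) and 5 tested genes with a beta-amylase domain, of which HF04116, HF04121, HF04141 and HF04150 were lower in SF and HF04163 was not a DEG (log2 fold change of -0.54, adjusted p = 0.12). Within it HF04120 (chr3:24536460-24540155), described by an argonaute linker domain, was higher, with 66.7, 79.5 and 77.1 FPKM in SF and 56.3, 44.9 and 47.9 FPKM in Mr (log2 fold change of 0.57, adjusted p = 0.012). At EB 20 of the 27 were lower and at LS 15 were.

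A stretch of chromosome 7 (chr7:30607120-30897662), picked in the same way, showed the mirror image. Of 36 listed genes 28 were tested, 24 were higher and 0 lower in SF, and 12 were listed at 0 in every Mr library. In Mr 26 of the 28 averaged under 1 FPKM, and in SF 2 did. It holds HF25572, HF25580 and other TIR genes beside pieces of a UvrD-like helicase. HF25576 (chr7:30729355-30731921), with no description, had 24.6, 26.4 and 26.4 FPKM in SF and 0 in Mr, at least 96.3-fold higher. HF25583 (chr7:30794446-30796940), in the middle of the stretch, did not differ by the test, with 3.28, 2.25 and 3.26 FPKM in SF and 3.83, 4.08 and 2.45 FPKM in Mr (log2 fold change of -0.17, adjusted p = 0.55). At EB 26 and at LS 23 of the 28 were higher. The median log2 fold change was 1.80, and 2.55 with the genes at 0 set to their bounds.

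**Figure D4:**
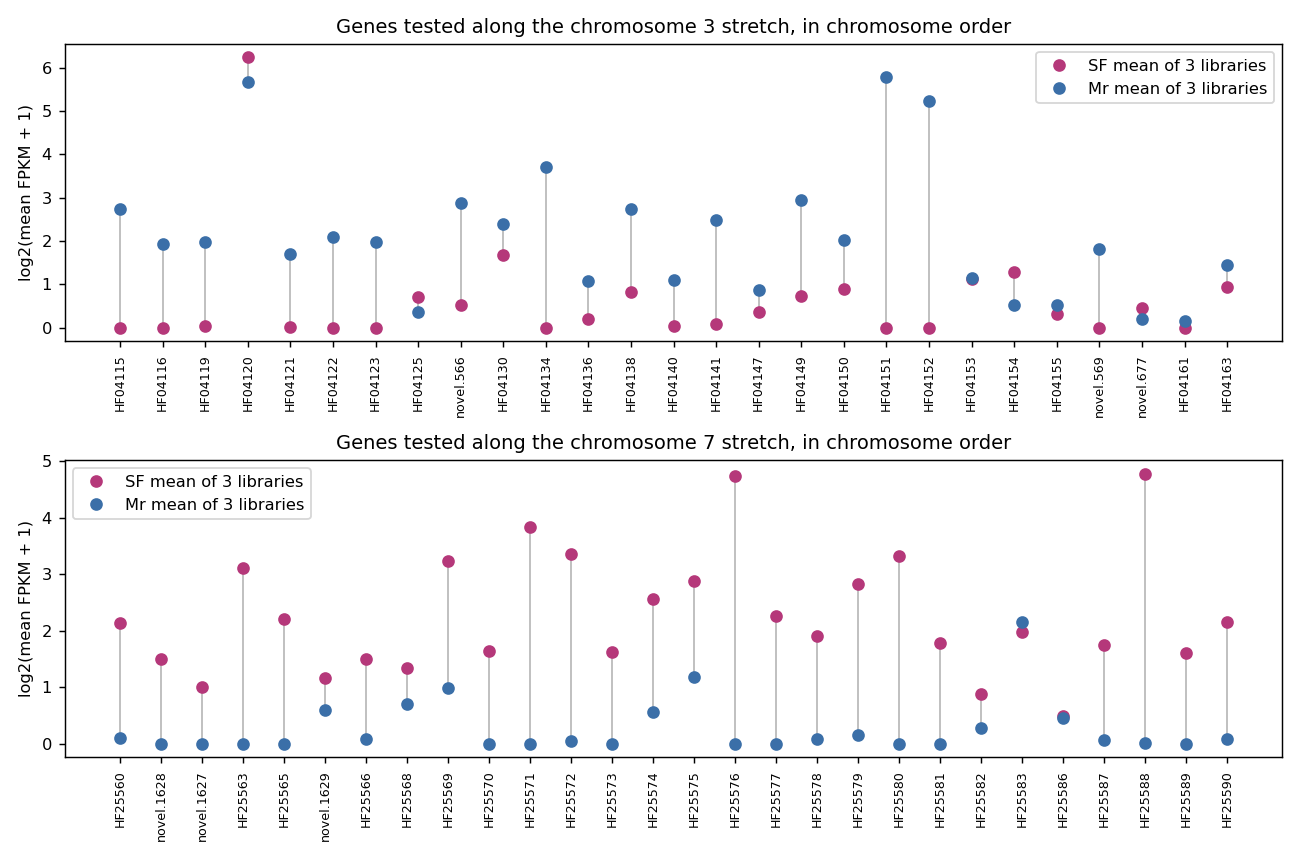
Points give log2(mean FPKM + 1) over 3 libraries at ES for the genes tested in the stretches of chromosomes 3 and 7, in chromosome order and not to distance, with a line joining SF and Mr. On chromosome 3 most SF points lie near 0 and HF04120 is an exception, and on chromosome 7 most Mr points lie near 0 and HF25583 is an exception.

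The difference at ES was compared with that at the other stages, which use other libraries of the same materials. SF against Mr gave DEGs for 41% of genes at EB (22.1% higher, 18.9% lower) and 32.7% at LS (16.4% higher, 16.3% lower). Of the 5564 genes higher at ES, 3598 (64.7%) were also higher at EB and 70 were lower there, and 2905 (52.2%) were higher at LS and 46 lower. Of the 4988 lower genes, 2864 (57.4%) were lower at EB and 132 higher, and 2929 (58.7%) were lower at LS and 29 higher. In all, 2293 of the higher and 1940 of the lower genes held at the 3 stages, among them HF04849, HF29432, HF41298, HF02692, HF39607, HF19067 and HF08845. At LS, SF_LS_1 and Mr_LS_2 held transcripts found in WF and hardly elsewhere in their own material. Of the genes that averaged at least 5 FPKM in WF and stayed under 0.5 FPKM in the other 8 libraries of the material, 28 of 55 reached 1 FPKM in SF_LS_1 and 60 of 81 in Mr_LS_2, against 0 or 1 of 9 to 17 for each other library of SF and Mr, those at ES included. Without both the LS count was 8647 instead of 9700. Single libraries weighed more, with 7668 DEGs at EB without Mr_EB_1 instead of 12167 and 5092 at LS without SF_LS_2.

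Called only at ES were 1262 higher and 1030 lower genes, which by itself does not show that the difference changed. Tested as an interaction in limma, the difference at ES departed from that at EB for 9.23% of genes (981 up and 1757 down from EB) and from that at LS for 2.88% (474 up and 381 down). Of the genes called only at ES, 238 of the higher and 257 of the lower had either interaction, and 26 and 22 had both. Scaling to total fragments moved the median of all genes by 0.15 for ES against EB and turned that split to 1463 up and 1172 down, and for ES against LS it gave 450 up and 237 down. Without any one of SF_ES_1, SF_ES_2, Mr_ES_2, SF_EB_2, Mr_EB_1, Mr_EB_2 and Mr_EB_3 the count against EB was 996 to 1757 instead of 2738. Against LS it was 4556 instead of 855 without SF_LS_1, 3520 without SF_LS_1 and Mr_LS_2, and 120 to 366 without any other single library apart from SF_ES_2 (630).

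Named genes showed both patterns. For HF13510 the difference was larger in the bud, 2.62 ± 0.38 at EB against 0.93 at ES (interaction of -1.69, adjusted p = 0.042), and 0.198 ± 0.28 at LS. For HF00721 it was -5.77 ± 0.33 at EB, so the gap narrowed at ES (interaction of 3.22, adjusted p = 0.013), and for HF25114 it was -3.75 ± 0.22 at EB (interaction of 1.82, adjusted p = 0.034). The interaction of HF13510 was not called without any one of SF_ES_1, SF_ES_2, SF_ES_3, Mr_ES_1, Mr_ES_2 and the 3 Mr_EB libraries, nor that of HF25114 without SF_ES_2, Mr_ES_1, Mr_ES_2 or any of those at EB, while those of HF00721 and of the other genes below held without each library in turn. Over the chalcone synthase and isomerase genes, 9 of 15 had an interaction up and 1 down. SAUR gene HF00533 (chr9:14634767-14635126) had 15.4, 16.2 and 11.6 FPKM in SF and 1.33, 0.714 and 1.43 FPKM in Mr at ES (log2 fold change of 2.84 ± 0.20, adjusted p = 0.00029) but differed by only 0.33 ± 0.21 at EB (interaction of 2.51, adjusted p = 0.0028). For bZIP gene HF42923 the gap widened from -1.56 ± 0.22 at EB (interaction of -2.22, adjusted p = 0.0051), and so it did for BAHD gene HF21620 from -2.88 ± 0.22 (interaction of -2.63, adjusted p = 0.002).

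For some stress-related genes the sign of the difference changed between EB and ES. Thaumatin gene HF01294 (chr4:7964437-7965114) had 19.7, 22.2 and 23.9 FPKM in SF and 100.1, 142 and 65.3 FPKM in Mr at ES (log2 fold change of -2.11 ± 0.27, adjusted p = 0.0025) but was higher in SF at EB (2.47 ± 0.25; interaction of -4.58, adjusted p = 0.0009). Bet v 1 gene HF43095 gave 1.28 ± 0.44 at EB (interaction of -3.49, adjusted p = 0.0072) and 0.77 ± 0.33 at LS (interaction of -2.98, adjusted p = 0.015). HF43095 was not a DEG at EB or LS, so a reversal is not shown for it. Bet v 1 genes were 11 higher and 4 lower at EB against 2 and 8 at ES, with 1 interaction up and 8 down. Late embryogenesis abundant genes, which protect drying cells, were 22 higher and 12 lower at EB against 11 and 22 at ES, with 4 interactions up and 21 down. WRKY genes kept their side, with 35 higher and 4 lower at EB against 12 and 4 at ES, and had 2 interactions up and 9 down.

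**Figure D5:**
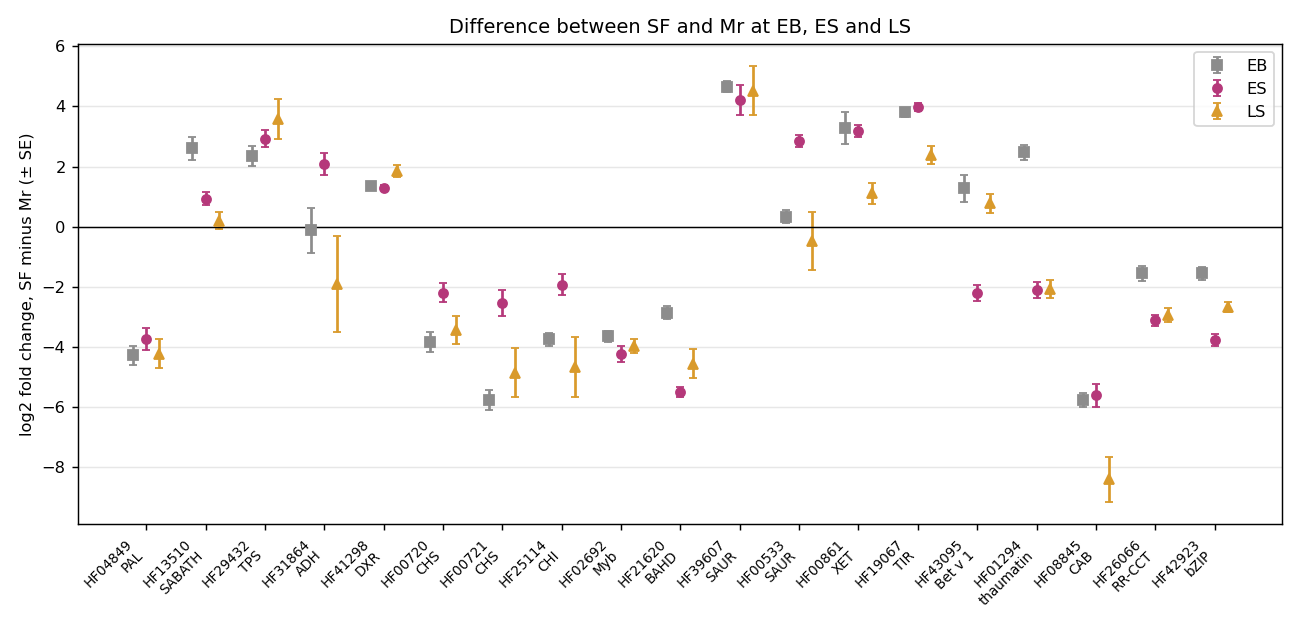
Points give the log2 fold change of SF against Mr with its SE for 19 named genes at EB (squares), ES (circles) and LS (triangles), from 3 libraries in each group. HF04849, HF39607 and HF08845 kept their side at all 3 stages, and HF01294 changed side between EB and ES.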

How the data were processed

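RNA of whole flowers was sequenced as 150 bp pairs in 27 libraries (9 groups of 3). The authors deposited 1 table of FPKM values for 48445 genes on the HFTH1 apple genome, of which 3768 were newly assembled, with coordinates, gene length and Pfam descriptions. The submitters' processing notes name StringTie 1.3.3b and DESeq2 1.16.1, and the aligner is not given in the sources used here. Multiplying FPKM back by gene length gave fragments, and 100% of 771080 values under 1000 fragments came within 0.05 of a whole number. Depth per library was thus recovered (17479706 to 22527496 fragments at ES). The library size behind FPKM was not the number of fragments on genes. At ES it was 1.03, 1.07 and 0.94 times that number in SF and 0.96, 0.89 and 1.00 times in Mr.

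Because the table holds no raw counts, SF and Mr were compared on the log2(FPKM + 1) scale by limma 3.58.1 (R 4.3.3, intensity trend, two-sided, Benjamini-Hochberg) in place of the count test of the study, at an adjusted p under 0.05. The 3 libraries of each group alone entered a fit. Stage dependence was an interaction contrast over 4 groups. The fits were tested on simulated data. Families were matched by Pfam description, and their patterns were corrected after the descriptions were read. The members and lists were chosen with earlier results of these data known. Named genes were, among DEGs whose libraries did not overlap, the 10 largest rises and falls with a description, the 5 largest differences in mean FPKM each way, up to 3 genes per family and direction, the 5 largest interactions each way, and the listed scent genes. Genes of the chromosome stretches were chosen after their values were seen. Tables and figures were made with Python 3.11.15, numpy 2.4.6, pandas 2.3.3, scipy 1.17.1 and matplotlib 3.10.9. Gene sequences were not used here.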

Additional observations from a re-analysis of the deposited data

Results flagged for a closer look

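For some of the genes named here, the difference between SF and Mr at ES departed from that at another stage by the interaction test in limma (adjusted p under 0.05 over all genes tested). Of 107 named genes, this held for 27 against EB and 7 against LS. Over all genes tested the shares were 9.23% against EB and 2.88% against LS. Some genes were named because their interaction against EB was among the 5 largest each way. The counts are thus not independent evidence about the named genes. Values are the difference at ES minus that at the other stage, on the log2(FPKM + 1) scale. Of these 34 values, 16 kept the call when each of the 12 libraries was left out in turn and 18 did not.

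Against EB, values that held without every library in turn were positive, so that SF stood higher against Mr than in the bud, for SAUR gene HF00533 (2.51), chalcone synthase HF00721 (3.22) and the glycosyltransferase HF18355 (2.64). They were negative for thaumatin gene HF01294 (-4.58), late embryogenesis abundant gene HF08512 (-4.401), Bet v 1 gene HF43095 (-3.49), BAHD gene HF21620 (-2.63), beta-amylase HF37337 (-2.38), bZIP gene HF42923 (-2.22), NAC gene HF07534 (-1.77), the clock-type regulator HF26066 (-1.57), Hsp70 gene HF02611 (-1.37), GPPS gene HF18284 (-0.94) and SK gene HF41090 (-0.83).

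Values against EB that were lost without at least 1 library were those of CHI gene HF25114 (1.82), CHS gene HF26997 (0.78), the lipid transfer protein HF15590 (0.73), SABATH gene HF13510 (-1.69), heat shock factor HF30538 (-3.73), the newly assembled P450 gene beside HF24647 (-1.85) and oxygenase HF07215 (-1.47). The same was true of MADS-box gene HF21574 (-1.298), HF23348 (-1.26), bZIP gene HF22028 (-0.77), acid phosphatase HF00321 (-0.75) and HF04151 (-0.61), which was listed at 0 in SF so that its value depends on the pseudocount. For glutathione S-transferase HF22797 (-0.99) only the fit without Mr_EB_2 lost the call.

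Against LS, the values of glycosyl hydrolase HF08921 (3.61) and HF43095 (-2.98) held without each library in turn. Those of HF00861 (2.06), HF19067 (1.603), HF21574 (1.43), the AS gene HF23986 (1.13) and histone gene HF40361 (0.92) did not. SF_LS_1 and Mr_LS_2, which held WF transcripts as given above, entered these values.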

How the results depend on the processing

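At ES 7203 to 9097 genes were called when 1 library was left out (lowest without SF_ES_1), 6281 with the replicate number as a block and 4104 where a log2 fold change of 1 in size was required, against 10552. Another pseudocount, no filter, a stricter filter, total-fragment scaling, a fit of all 9 groups, no trend and limma voom on recovered fragments gave 7331 to 10865, within 1.5 times. The replicate numbers are not shown to pair flowers, since deviations of same-numbered libraries correlated at 0.061, -0.18 and -0.29. At EB leaving out 1 library gave 7668 to 12964 and at LS 5092 to 11740. The stage dependence gave 996 to 3838 against EB and 120 to 4556 against LS, the latter 237 with the replicate block and 3520 without SF_LS_1 and Mr_LS_2, an alternative added after the data were seen. Of 1597 alternative values for 107 named genes, 1542 kept direction and call, 44 lost and 2 gained the call, and 9 changed sign. The 9 were of HF24990 (0.0088 under total-fragment scaling, and -0.27 to 0.018 when 1 library was left out), HF22253 (0.0061, and -0.24 to 0.089) and HF23986 (0.069, and -0.096 to 0.046), none of them a DEG. With the block, HF01786, HF04120, HF13510, HF23339, HF06193, HF09131, HF12728 and HF22522 were not called (adjusted p = 0.14, 0.067, 0.12, 0.058, 0.095, 0.16, 0.081 and 0.071). HF01786 was also lost with no filter (0.083), and HF06193 and HF12728 under total-fragment scaling (0.11 and 0.085). The causes were not tested. Fragment number limits genes of low FPKM, for which 3 fragments per library is the floor used.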

Other observations

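Sugar transporters gave 24 higher and 23 lower in SF of 110 tested, and 2 neighbours on chromosome 16 stood apart. HF13888 (chr16:16184679-16186848) had 76.7, 27.4 and 67.04 FPKM in SF and 8.54, 7.09 and 5.29 FPKM in Mr (log2 fold change of 2.76 ± 0.40, adjusted p = 0.0037), and HF13886 (chr16:16133736-16135702) had 61.6, 17.1 and 42.1 FPKM in SF and 7.84, 4.704 and 4.603 FPKM in Mr (log2 fold change of 2.48 ± 0.47, adjusted p = 0.0094). In both SF_ES_2 was lowest of SF and still above all of Mr, and in the fit of all 9 groups neither was called (adjusted p = 0.11 and 0.12). HF17891 (chr10:40314660-40317367) went the other way, with 3.77, 3.96 and 5.72 FPKM in SF and 26.6, 37.7 and 18.5 FPKM in Mr (log2 fold change of -2.35).

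Histone genes were more often higher in SF, with 17 higher and 6 lower in SF of 68 tested, and 10 higher and 2 lower without Mr_ES_1, 11 and 4 without SF_ES_1, 12 and 3 without SF_ES_2 and 12 and 3 without Mr_ES_2. The linker histone HF19344 (chr2:9828916-9829584) had 74.6, 91.3 and 66.99 FPKM in SF and 22.1, 21.6 and 23.1 FPKM in Mr (log2 fold change of 1.75 ± 0.12, adjusted p = 0.0003), and core histone HF40361 (chr3:8511628-8513537) had 162, 171 and 156 FPKM in SF and 70.6, 59.97 and 64.995 FPKM in Mr (log2 fold change of 1.31 ± 0.09, adjusted p = 0.00028), while the H2A gene HF44438 was lower (log2 fold change of -2.41). MCM helicase genes, which act in DNA replication, gave 3 higher and 4 lower in SF of 21 tested, and kinesins 12 higher and 12 lower in SF of 92 tested, 7 and 8 without SF_ES_1, 7 and 7 without Mr_ES_1 and 5 and 8 without Mr_ES_2. Among late embryogenesis abundant genes on chromosome 6, HF08512 (chr6:21633361-21633996) had 0.675, 1.58 and 0.842 FPKM in SF and 6.42, 14.3 and 17.7 FPKM in Mr (log2 fold change of -2.69), and HF08523 (chr6:21890752-21891396) had 20.95, 37.8 and 48.7 FPKM in SF and 5.099, 6.77 and 5.98 FPKM in Mr (log2 fold change of 2.33), so members of 1 family and chromosome differed in opposite directions.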
